A study of Mus musculus with 12 samples.

Results

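Solute carriers are membrane proteins that move small molecules across the cell surface or the membranes of organelles, and their gene names hold the family number and the member number, as in *Slc9a9*. Members were all probes whose annotated gene symbol consists of Slc, digits, the letter a and digits, with an optional suffix of a letter and a digit, and *Slc4a1* and *Slc43a2* were left out. This gave 229 probes of 171 genes among 20794 probes on the array, of which 12771 carried a symbol of one of 9030 genes. A value on at least 8 of the 12 arrays was required for a test, which 224 probes of 168 genes had, and 211 of the member probes had a value on all 12. The 5 probes under this minimum belonged to *Slc1a1*, *Slc12a5*, *Slc17a7*, *Slc32a1* and *Slc35a5*.

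The study compared whole yolk sacs of *Prdm6* del/del mouse embryos at E10.5 with wild type yolk sacs of the same stage on cDNA arrays, to find genes controlled by the transcription factor Prdm6. In del/del embryos the *loxP*-flanked exon 3 of *Prdm6* was removed in the germ line by crossing to a CMV-Cre deleter strain, so every cell type of the yolk sac carried the deletion. The 6 del/del yolk sacs were each hybridised on 2 arrays in opposite dye orientation against 1 pool of 6 wild type yolk sacs, and the values were log2 ratios of del/del over wild type. The labels did not say which arrays shared a yolk sac, so the 12 arrays entered the test as if independent. The p-values are therefore too small, and the pool leaves out the spread between wild type animals. Arrays of consecutive replicate numbers, presumed to be the pairs, were averaged as an alternative.

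Each of the 12 arrays held 20011 to 20501 values, with array medians between -0.057 and 0.045, and the median of the member probes on an array lay between -0.044 and 0.045. In 5 arrays del/del RNA was labelled with Cy5 and in 5 with Cy3, and for replicates 8 and 9 the labels named the same dye for both channels. No probe of the annotation used carried the symbol *Prdm6*, so the deletion was not checked on the arrays. Since ratios hold no level, the presence of yolk sac cell types could not be checked either.

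The yolk sac feeds the embryo before the placenta takes over: its outer layer, the visceral endoderm, absorbs and exports sugars, amino acids, lipids and metals, and its blood islands make the primitive red cells. Both cell types are known to rely on particular carriers. Red cell precursors import iron and glycine for heme and exchange nucleosides with the plasma.

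Most solute carriers lay near a ratio of 0. The median of the 224 mean log2 ratios was 0.01 (quartiles -0.09 and 0.10), against 0.00 over all 20516 probes tested (quartiles -0.10 and 0.09), and 200 member probes (89.3%) were within 0.25 of 0, compared with 85.4% of all probes. The median SD between arrays was 0.38 for members and 0.41 for all probes. No member was higher and 3 members (1.34%) were lower past the threshold, an adjusted p under 0.05 (limma, Benjamini-Hochberg over all probes tested) with a change over 1.3-fold. Among all probes 1.07% passed, 0.166% higher and 0.907% lower, and among those with a gene symbol 0.246% were higher and 1.01% lower, so the members' share was near the background. The 2 genes that the selection left out had 3 probes, of which 2 were lower, and together with them 5 of 227 probes (2.2%) would have been lower. Without a fold requirement and at an unadjusted p under 0.05, 31 members (13.8%) differed from 0, 20 of them lower and 11 higher, where the share over all probes was 11%. At that p with the 1.3-fold change, 8 of the 224 members were lower and 0 higher. Among all 20516 probes 400 were lower and 154 higher, so these also leaned lower.

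The 3 probes that fell belonged to *Slc9a9*, *Slc29a1* and *Slc38a5*. They lie on chromosomes 9, 17 and X and transport different substrates. The 250 bases before their listed start sites, from RefSeq (GRCm38.p6, read 5′ to 3′ on the strand of the gene), are shown because these are the members past the threshold. Whether these genes are regulated together was not tested. Capitals mark matches to CACCC or its reverse complement GGGTG, the letters of a motif bound by erythroid Krüppel-like factors. GATAA and its reverse complement TTATC, the letters bound by GATA factors, were searched as well.
Slc9a9 (chr9:94669642-94669891, plus strand): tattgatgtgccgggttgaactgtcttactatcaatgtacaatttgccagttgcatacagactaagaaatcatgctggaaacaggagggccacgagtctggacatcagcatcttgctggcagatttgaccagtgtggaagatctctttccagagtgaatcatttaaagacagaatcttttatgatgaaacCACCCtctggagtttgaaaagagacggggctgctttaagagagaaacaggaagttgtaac
Slc29a1 (chr17:45599619-45599868, minus strand, the outermost of 8 listed starts): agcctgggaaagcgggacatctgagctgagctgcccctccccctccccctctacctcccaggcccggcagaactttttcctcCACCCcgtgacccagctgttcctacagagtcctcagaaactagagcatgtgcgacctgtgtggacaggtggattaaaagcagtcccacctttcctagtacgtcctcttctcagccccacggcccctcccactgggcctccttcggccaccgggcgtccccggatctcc
Slc38a5 (chrX:8271131-8271380, plus strand): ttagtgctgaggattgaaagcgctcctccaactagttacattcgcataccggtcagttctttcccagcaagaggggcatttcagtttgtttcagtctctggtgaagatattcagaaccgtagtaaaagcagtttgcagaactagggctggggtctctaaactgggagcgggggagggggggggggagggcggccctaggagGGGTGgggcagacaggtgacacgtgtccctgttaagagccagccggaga
Each window held 1 match to CACCC on either strand and 0 to GATAA. Of all 32851 windows of this length, 52% held CACCC and 22.6% held GATAA, so neither count sets these genes apart. The annotated gene *Slc9a9* begins before its window, at position 94669557, with a non-coding transcript, while *Slc29a1* and *Slc38a5* begin next to theirs. A promoter entry was found for 133 of the 171 member genes.

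*Slc9a9* encodes a sodium-proton exchanger of endosomes, which sets their pH. Its probe 9725 ranged over the arrays from -1.70 to -0.73 with a median of -1.03. All 12 arrays were below 0, and the weakest of them was still more than 1.3-fold lower. The mean log2 ratio was -1.07 ± 0.30 (SD, n = 12 arrays), 2.09-fold lower (limma adjusted p = 4.32e-05). The study lists *Slc9a9* among the genes it selected on these same arrays, so this call is no independent evidence. Probe 6719 of the gene went the same way on 11 of 12 arrays, from -0.88 to 0.22 with a median of -0.25, but its mean of -0.36 ± 0.33 (SD, n = 12) did not pass (limma adjusted p = 0.123).

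*Slc29a1* encodes the equilibrative nucleoside transporter ENT1, which is abundant on red cells. Its probe 6571 ranged from -1.26 to -0.15 with a median of -0.65. The ratio was below 0 on every array, with a mean of -0.65 ± 0.30 (SD, n = 12), 1.57-fold lower (limma adjusted p = 0.00098). A further probe of the gene, 16190, had a mean of -0.06 ± 0.44 and did not pass (limma adjusted p = 0.796). It separated by dye: the arrays with del/del RNA in Cy5 lay between -0.92 and -0.16, and those with it in Cy3 between 0.10 and 0.47. With both probes averaged, the gene had a mean of -0.36 (limma adjusted p = 0.00284), under the 1.3-fold change.

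*Slc38a5* encodes a sodium-coupled transporter of glutamine, histidine and other neutral amino acids, and it was measured by 1 probe. Its values ran from -1.28 to -0.39 with a median of -0.51, below 0 on all 12 arrays. The mean was -0.64 ± 0.26 (SD, n = 12), 1.56-fold lower (limma adjusted p = 0.000631).

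**Figure D1:**
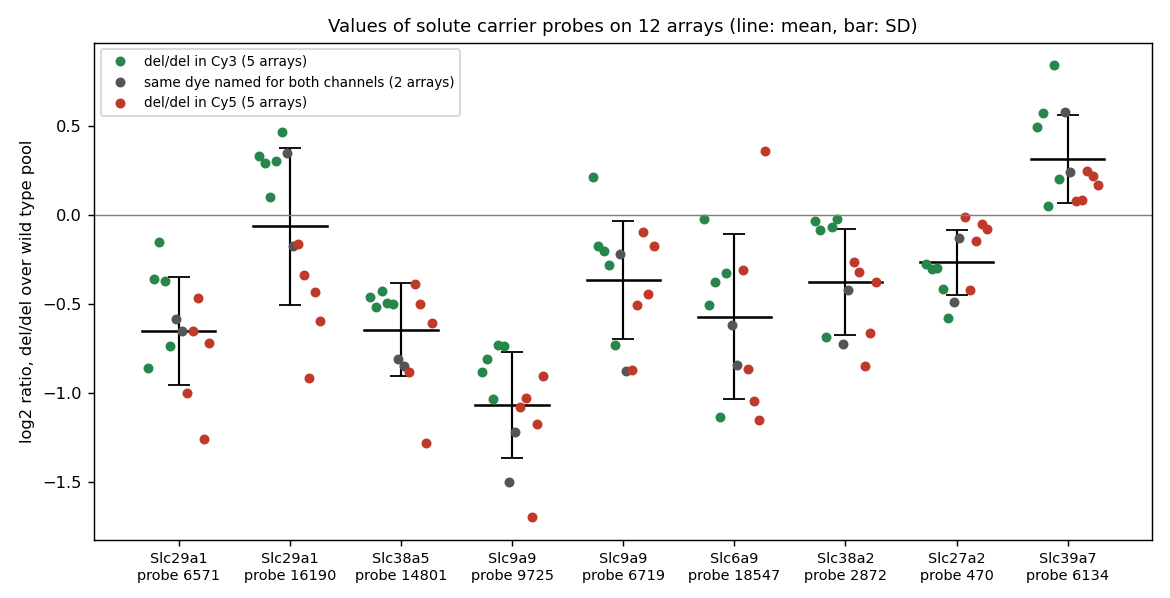
Log2 ratio of del/del over the wild type pool (y axis) for the probes of *Slc9a9*, *Slc29a1* and *Slc38a5*, for *Slc6a9*, and for the other members of 1 sign on every array (x axis), 1 point per array, coloured by the dye of the del/del RNA, with the mean and SD as a black bar. The 12 points of *Slc9a9* 9725, *Slc29a1* 6571 and *Slc38a5* all lie below 0, while *Slc29a1* 16190 splits at 0 by dye.

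With presumed pairs averaged, 3 members were again lower and 0 higher, against 0.513% and 0.0498% of all probes. The adjusted p was 0.0125 for *Slc9a9*, 0.0369 for *Slc38a5* and 0.045 for *Slc29a1*. When single arrays of an incomplete pair were also kept in the table, *Slc9a9* still passed (limma adjusted p = 0.0193), whereas *Slc38a5* and *Slc29a1* did not, at 0.0508 and 0.0591. Both dye orientations gave the same sign for all 3: in Cy5 and Cy3 the mean log2 ratio was -1.18 and -0.84 for *Slc9a9*, -0.82 and -0.50 for *Slc29a1*, and -0.73 and -0.48 for *Slc38a5*.

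Below 0 on every array were 5 member probes (2.23%, against 0.79% of all probes). Besides the 3 just given these were *Slc38a2* 2872 and *Slc27a2*. *Slc38a2* encodes a system A transporter of small neutral amino acids, and its probe had a mean of -0.38 ± 0.30 (limma adjusted p = 0.0426), just short of the 1.3-fold change, while its probe 5274 had -0.19 (limma adjusted p = 0.379). *Slc27a2* encodes a fatty acid transport protein that also activates very long-chain fatty acids. Its mean was -0.27 ± 0.18 (limma adjusted p = 0.0426), also short of the fold. Above 0 on every array was 1 member probe (0.446%, against 0.161% of all probes), *Slc39a7* 6134, with a mean of 0.32 ± 0.25 (limma adjusted p = 0.051). *Slc39a7* encodes a zinc transporter of the endoplasmic reticulum, and its probe 2766 had a mean of 0.03 (limma adjusted p = 0.916), again split by dye, from 0.36 to 0.79 in Cy5 and from -0.97 to 0.01 in Cy3.

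Carriers with a known role in red cells were listed from their functions, with the earlier results known. Of the 16 genes listed, 9 were measured, with 16 probes. Of these genes 2 were lower, *Slc29a1* and *Slc38a5*, and the median of the 16 probes was -0.02, against 0.01 for the 208 tested members outside the list, of which 1 was lower. Over all features, 118 of 8956 tested genes with a symbol and 0.907% of all probes were lower, and with 9 genes listed by choice nothing is read from the difference. *Slc6a9* encodes the glycine transporter GlyT1, which supplies glycine for heme. Its values ran from -1.15 to 0.36 with a median of -0.56. It was below 0 on 11 of 12 arrays, with a mean of -0.57 ± 0.47, and missed the threshold (limma adjusted p = 0.0684). Replicate 11 was the array above 0, and without it the mean was -0.67 (limma adjusted p = 0.00745). That array is singled out here for its sign, so the smaller p follows from the choice. With presumed pairs averaged, *Slc6a9* was further from the threshold (limma adjusted p = 0.232).

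The measured carriers of iron and heme in the same list did not pass. *Slc25a37*, *Slc25a38* and *Slc40a1* were also listed but not measured, so nothing is known of them here. *Slc11a2*, which encodes the iron importer DMT1, had means of 0.06, 0.00 and -0.03 on its 3 probes. The first of these, probe 2855, had opposite signs by dye, 0.67 in Cy5 and -0.45 in Cy3. *Slc48a1*, which encodes a heme transporter of lysosomes, had 0.18 and 0.11. The mitochondrial carriers *Slc25a39* and *Slc25a28*, of which the latter encodes the iron importer mitoferrin 2, had -0.06 and -0.01. The zinc exporter gene *Slc30a1* had -0.22 and 0.05, and the urea transporter gene *Slc14a1*, whose human counterpart carries the Kidd blood group, had -0.17, 0.02 and 0.05. The measured part of the list thus held 2 lower genes beside 7 that did not pass.

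**Figure D2:**
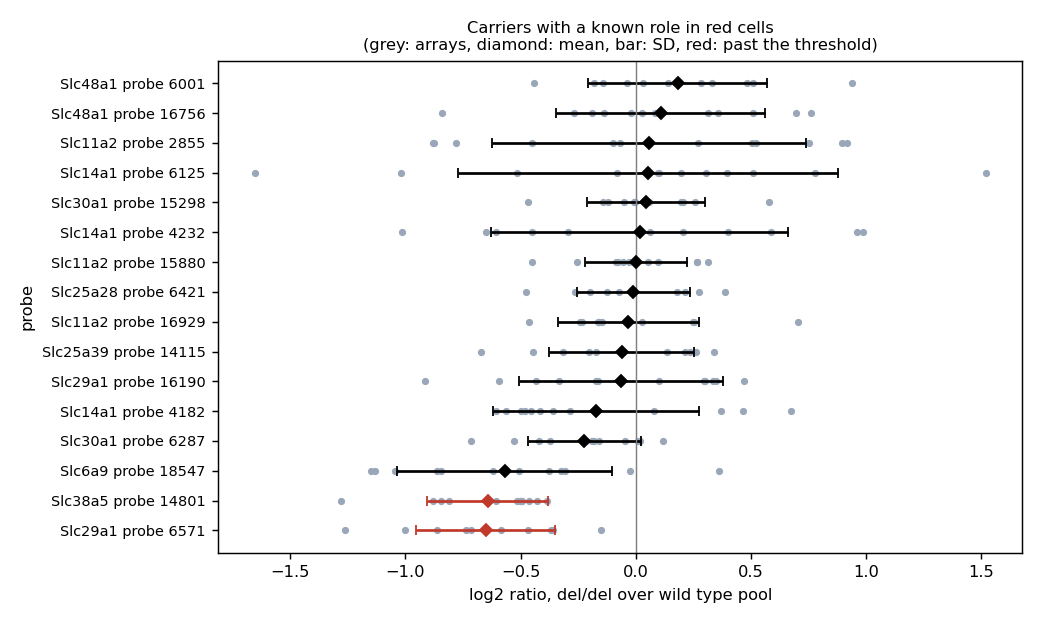
Log2 ratio of del/del over the wild type pool (x axis) for the 16 probes of 9 carrier genes with a known role in red cells (y axis). Grey points are arrays, diamonds the mean and bars the SD, with probes past the threshold in red. *Slc29a1* 6571 and *Slc38a5* lie wholly below 0, and the iron, heme, zinc and urea carriers straddle it.

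Markers of red cells fell on these arrays. Of 20 listed red cell markers 9 genes were measured, of which 8 were lower, on 12 of their 20 probes, with a median of -0.88. Over all probes 0.907% were lower. With presumed pairs averaged, 9 of the 20 red cell probes were lower. On single arrays the median of all 20 red cell probes lay between -1.12 and -0.32. The 7 tested probes with a globin symbol in the annotation used, all of the alpha-like genes *Hba-a1* and *Hba-x*, had means from -1.48 to -0.91. Among them probe 15359 of *Hba-a1* did not pass (limma adjusted p = 0.0656). The beta-like globins *Hbb-b2* and *Hbb-bh1*, which the study lists as lower on these arrays, were not among these 7 probes. In whole tissue fewer red cells and less RNA per cell cannot be told apart. Over the 12 arrays, the deviations of the 3 lower members from the fit were set against the median deviation of the globin probes, giving 3 relations, and none passed. For *Slc9a9* Pearson's r was 0.47 (permutation p = 0.116, adjusted 0.348) and Spearman's rho 0.29 (permutation p = 0.353, adjusted 0.905), with r = 0.30 without the 2 arrays farthest out. For *Slc38a5* r was 0.31 (permutation p = 0.322, adjusted 0.484) and rho 0.04 (permutation p = 0.905, adjusted 0.905), and r turned to -0.40 without those 2 arrays. For *Slc29a1* r was -0.02 (permutation p = 0.953, adjusted 0.953) and rho -0.07 (permutation p = 0.836, adjusted 0.905), with -0.44 without them. Arrays of 1 yolk sac are not independent here either. The deviations leave out each probe's mean over the arrays, so these relations cannot decide on a fall shared by all arrays. The part of red cell RNA in the lower ratios of these carriers was not tested.

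Carriers of absorptive epithelia, a list chosen by hand for gut, kidney and visceral endoderm, held 23 measured genes with 30 tested probes. Whether visceral endoderm expressed them was not tested. Other listed genes, such as *Slc2a1* and *Slc15a1*, were not measured. None was past the threshold in limma, and 3 probes had an unadjusted p under 0.05. These were *Slc27a2*, *Slc30a1* 6287 (-0.22) and *Slc1a1* 13451 (-0.24), all below 0, while of all tested probes in the list 15 were below and 15 above 0. The median was 0.00 and the means lay between -0.27 (*Slc27a2*) and 0.17. *Slc2a2*, which encodes the glucose transporter GLUT2, had 0.13 and *Slc5a1*, the sodium-glucose cotransporter, -0.06. The amino acid carriers *Slc7a7* and *Slc38a4* had 0.15 and -0.07, the folate carrier *Slc46a1* 0.14 and the zinc importer *Slc39a4* 0.03. Markers of visceral endoderm itself, with 13 of 20 listed genes measured, had a median of 0.03 and 0 called. Endothelial markers (13 tested probes) had a median of -0.08 and 0 called. Mesenchymal markers (14 probes) had -0.21 with 3 lower, and macrophage markers (6 probes) -0.36 with 2 lower, where 0.907% of all probes were lower. With presumed pairs averaged, 2 mesenchymal and 0 macrophage probes were lower.

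By transported substrate, amino acid carriers were the largest class, with 51 tested probes, a median of -0.01 and 1 probe lower (*Slc38a5*). The 15 probes for the exchange of sodium, potassium, calcium, magnesium and protons had a median of 0.01 and 1 lower (*Slc9a9*). The 6 probes of nucleoside and nucleobase carriers had a median of -0.11, with 5 of 6 below 0 and 1 lower (*Slc29a1*). No other class held a probe past the threshold. Their medians were 0.02 for 29 probes of mitochondrial carriers, 0.03 for 25 of transition metals and heme, 0.05 for 23 of sugars and polyols, 0.04 for 15 of inorganic anions, 0.07 for 11 of neurotransmitters and osmolytes, -0.04 for 11 of organic ions and bile acids, and -0.03 for 10 of carboxylates. The smaller classes of vitamins and choline, nucleotide sugars, fatty acids, urea, peptides, other substrates and transporter regulators held 2 to 6 tested probes each, with medians from -0.08 to 0.12.

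**Figure D3:**
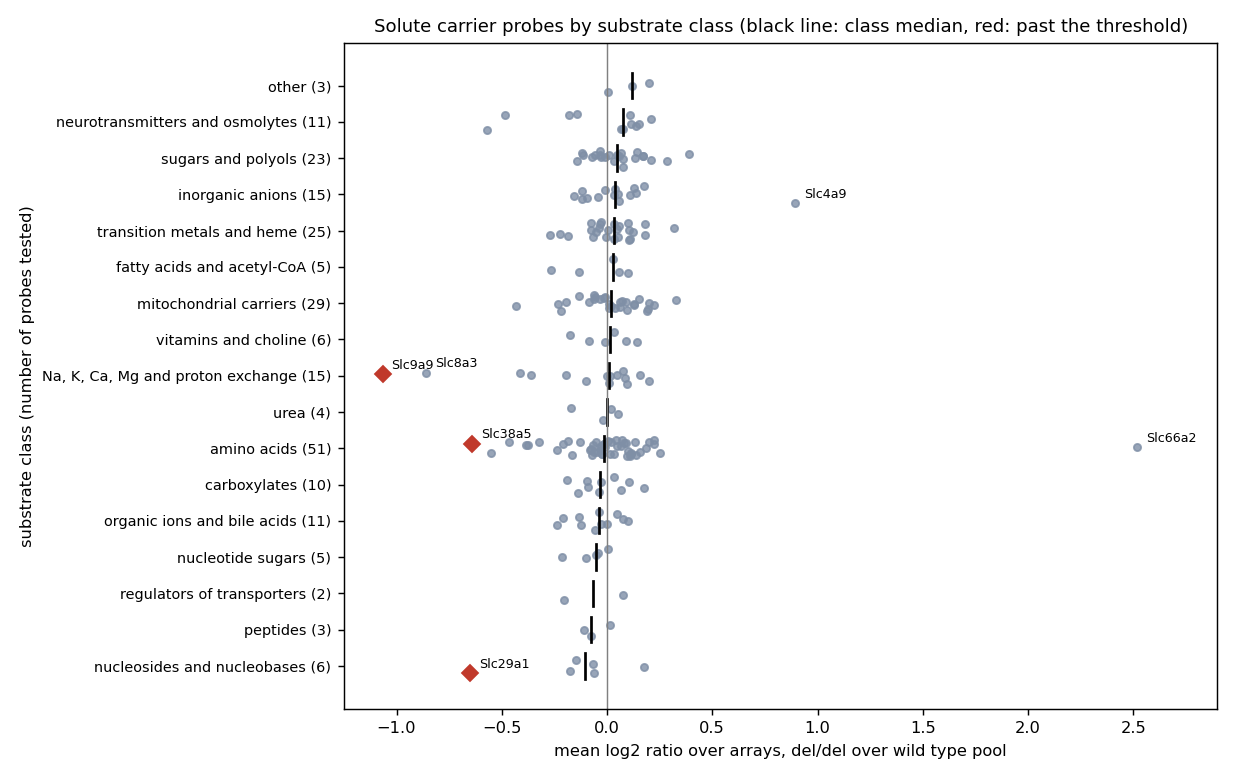
Mean log2 ratio of del/del over the wild type pool (x axis) for the 224 tested member probes, grouped by substrate class (y axis), 1 point per probe, with the probes past the threshold and those far from 0 labelled. *Slc9a9*, *Slc29a1* and *Slc38a5* are past the threshold, and 200 of the 224 probes lie within 0.25 of 0.

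In the classes without a call, the probe with the smallest adjusted p stayed short of the threshold in each. *Slc25a10*, which encodes the mitochondrial dicarboxylate carrier, had 0.19 (limma adjusted p = 0.163) on probe 9407 and -0.43 (0.292) on probe 641. *Slc9a3r2*, which encodes a scaffold that binds sodium-proton exchangers, had -0.20 (limma adjusted p = 0.123) and was below 0 on 11 of 12 arrays. The bicarbonate transporter gene *Slc4a8* had 0.18 (limma adjusted p = 0.353), the UDP-galactose transporter gene *Slc35a2* -0.21 (0.362) and the organic anion transporter gene *Slc22a8* -0.21 (0.372). The glucose transporter gene *Slc5a9* had 0.29 (limma adjusted p = 0.404). The monocarboxylate transporter family member *Slc16a6* had 0.18 (limma adjusted p = 0.583) on probe 11030 and -0.09 (0.799) on probe 8825, of opposite sign. *Slc49a4* had 0.12 (limma adjusted p = 0.638), 0.20 (0.677) and 0.00 (0.996) on its 3 probes. The adjusted p lay at 0.568 for the folate carrier *Slc46a1*, 0.667 for the first of the *Slc14a1* probes given above (-0.17) and 0.747 for the peptide and histidine transporter *Slc15a4* (-0.08). Some of these means joined opposite signs by dye. In Cy5 and Cy3 they were 0.17 and -0.54 for *Slc22a8*, -0.26 and 0.64 for *Slc16a6* 11030, and 0.19 and -0.39 for *Slc15a4*. Others kept their sign, such as *Slc25a10* 9407 (0.23 and 0.14) and *Slc9a3r2* (-0.31 and -0.17).

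Several of the most extreme means came with a wide spread. In all, 15 members were past 1.3-fold in size and 10 had an SD between arrays over 1. *Slc66a2* 10109 had the highest mean, 2.52 ± 7.0, with 2 values of 16.7 and 16.8 (limma adjusted p = 0.65), and *Slc8a3*, which encodes a sodium-calcium exchanger, had -0.86 ± 5.81 with a value of -16.5 (limma adjusted p = 0.858). Values of this kind, beyond 8 in size, numbered 9 in 5 member probes and 480 over all probes. *Slc4a9* was measured on 8 arrays, with a mean of 0.89 (limma adjusted p = 0.619), and the glucose-6-phosphate transporter *Slc37a4* on 9, with 0.39 (limma adjusted p = 0.817). The proton-coupled amino acid transporter *Slc36a2* was below 0 on 10 of 12 arrays, with a mean of -0.64 ± 0.69 (limma adjusted p = 0.175), *Slc66a2* 4342 had -0.55 ± 1.24 (0.536) and its probe 13020 -0.05 (0.934), and the GABA transporter *Slc6a11* had -0.48 (0.662). *Slc25a33*, which encodes a mitochondrial carrier of pyrimidine nucleotides, had 0.33 (limma adjusted p = 0.457) and 0.22 (0.351) on its probes, and *Slc38a10* had 0.25 (0.411) and 0.07 (0.925). The *Slc38a10* probe with 0.25 had opposite signs by dye, -0.19 in Cy5 and 0.69 in Cy3.

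Different probes of a gene mostly had means close together. Since 89.3% of the member probes lay within 0.25 of 0, this closeness does not show that probes of a gene agree. Of the member genes 43 had 2 or more tested probes, 99 probes in all, and 125 had 1. The median range between the means of a gene's probes was 0.17, and it was under 0.25 in 32 genes. It was over 0.5 in 5 genes: 3.07 in *Slc66a2*, 0.70 in *Slc9a9*, 0.62 in *Slc25a10*, 0.59 in *Slc29a1* and 0.57 in *Slc6a17*. *Slc9a9* and *Slc29a1* are thus both called on 1 of their 2 probes. Probe sequences were not used here, so whether these probes match different transcripts or related genes was not tested.

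**Figure D4:**
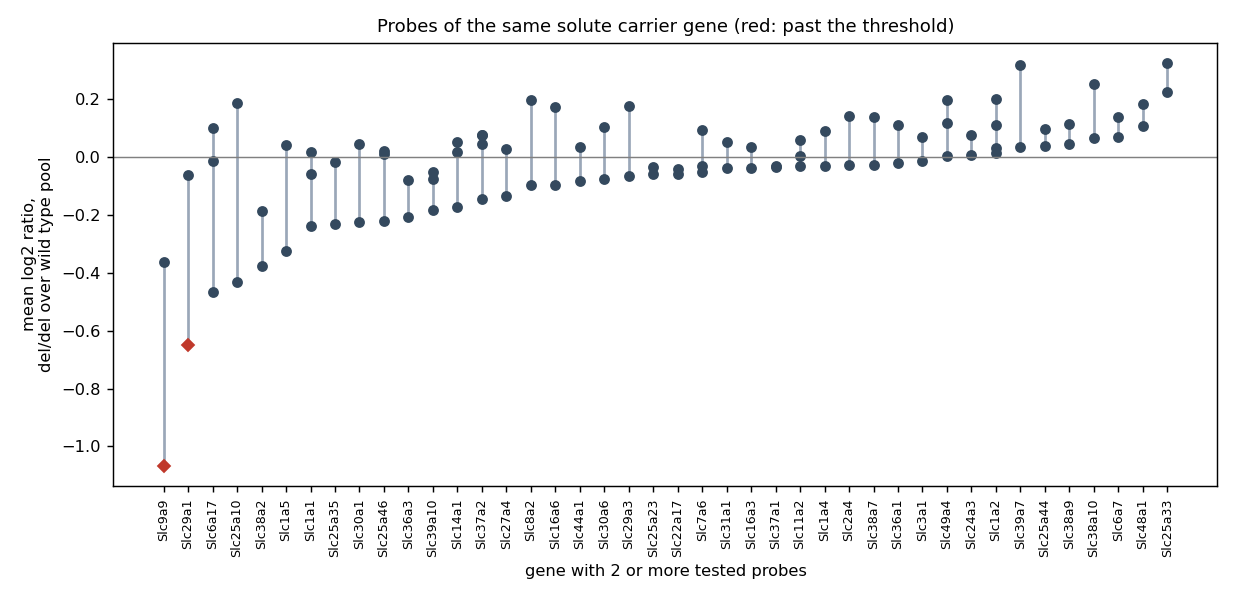
Mean log2 ratio of del/del over the wild type pool (axis in log2 units) for genes with 2 or more tested probes, 1 point per probe, with *Slc66a2* left out for its range of 3.07. Most genes have their probes close together, and the probes of *Slc9a9*, *Slc25a10*, *Slc29a1* and *Slc6a17* lie over 0.5 apart.

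Other membrane transport genes outside the naming rule (*Slc* genes with the letters b to h, *Slco* organic anion transporters, aquaporins, ABC transporters, ion pumps and single carriers) comprised 60 genes with 76 probes. None was past the threshold in limma, 10 probes had an unadjusted p under 0.05, of which 3 were lower and 1 higher by more than 1.3-fold, and the median was -0.04. *Atp1b2*, which encodes a subunit of the sodium pump, was below 0 on all 12 arrays, with a mean of -0.61 (limma adjusted p = 0.0773). *Abcb10*, which encodes a mitochondrial ABC transporter that red cell precursors need for hemoglobin, had -0.31 on probe 17254 (limma adjusted p = 0.0426, short of 1.3-fold) and -0.33 on probe 4239 (0.288), while its probe 8218 had 0.02 (0.972), with 6 arrays below 0 and 6 above, so its probes did not go one way. *Slco2b1* had -0.43 (limma adjusted p = 0.0952) on probe 2231 and 0.09 (0.87) on probe 11029.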

How the data were processed

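RNA of 6 *Prdm6* del/del yolk sacs and of 1 pool of 6 wild type yolk sacs was compared on 12 two-colour cDNA arrays. The authors deposited 1 value per probe and array, which was read as a log2 ratio and used as deposited. Background correction and normalisation were not given in the sources used here. Base and direction were not stated with the values and were taken from the signed mean ratios that the study lists, read as del/del over wild type. The labels and the methods differ on the RNA kit and on whether RNA was amplified.

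Probe symbols came from the platform annotation and were updated by gene ID against RefSeq (GRCm38.p6). The mean log2 ratio of each probe with at least 8 values was tested against 0 with limma 3.58.1 in R 4.3.3 (lmFit and eBayes), with the dye of the del/del channel as a term (0 for the 2 arrays with the same dye in both channels) and Benjamini-Hochberg adjustment over 20516 probes. The threshold of adjusted p under 0.05 and over 1.3-fold follows the methods. Permutation tests of the globin relations were two-sided with 100000 resamples. Arrays with opposite dye orientation had a median correlation of -0.12 over probes and those with the same orientation 0.12. Arrays give no read depth, and their number limits the precision. The procedure was tested on simulated data with independent arrays, so that test did not cover arrays that share a yolk sac.

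Probes named are those past the threshold, the 8 largest and 8 smallest means among tested members, *Slc9a9*, and the smallest adjusted p of each substrate class, each with the other probes of its gene, beside members of the lists, which were picked as examples after their values were seen. Members, substrate classes and gene lists were chosen with earlier results of these data known. Symbols with a letter alone as suffix (*Slc6a20a*, *Slc6a20b*, *Slc5a4b*; 4 probes, 0 past the threshold) were not counted. Alternatives varied the dye term, the arrays, scaling, extreme values, the minimum of values, pairs, shrinkage, fold threshold and averaging of probes.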

Additional observations from a re-analysis of the deposited data

How the results depend on the processing

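The same 3 probes stayed lower and 0 rose without the dye term, with the dye of the del/del channel for replicates 8 and 9, on the 10 arrays with different dyes, with arrays centred or also scaled, without values beyond 8, with values on at least 4 arrays, with robust or trended variances and at 1.5-fold. Leaving out each array in turn gave 3 to 4 lower probes and always kept these 3; the fourth was *Slc1a3* without replicate 2, *Slc30a3* without replicate 8 and *Slc6a9* without replicate 11. *Slc6a9* also passed among probes with all 12 values (limma adjusted p = 0.0424). Without a fold threshold 5 were lower, adding *Slc27a2* and *Slc38a2*. With single arrays of presumed pairs kept, 1 was lower (*Slc9a9*), and robust and trended variances together left 0 lower, as did the arrays with del/del in Cy5 alone, with 8 and 29 members at an unadjusted p under 0.05 and over 1.3-fold. In Cy3 alone 2 were lower, *Slc13a5* and *Slc9a9*, and with the probes of a gene averaged 2 genes, *Slc9a9* and *Slc38a5*. With the ratios turned by dye, as if they had been deposited by channel, 9 members were higher and 5 lower, none of them the 3 probes, and *Slc16a6* 11030 went from 0.18 to -0.45.

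Over all probes the 34 higher and 186 lower became 10 and 103 with presumed pairs, 5 and 52 with single arrays kept, 0 and 0 with robust and trended variances, 997 and 453 with turned ratios, 1 and 0 in Cy5 alone and 3 and 41 in Cy3 alone. No relation to the globin probes passed in any of the 4 settings. No paired analysis was possible because the labels form 1 group of arrays against a common pool and do not tie arrays to yolk sacs. The causes of these differences were not tested. The settings with single orientations or with pairs also rest on fewer values per probe.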
